A study of Mus musculus with 13 samples.

Results

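Apoe and 9 further lipid handling genes were followed through 13 RNA libraries of mouse microglia, the resident macrophages of the brain. The 10 genes were chosen by name, as the lipoprotein, cholesterol efflux and lipid droplet genes associated with the disease-associated state of microglia, and all 10 were among the 19737 genes of the deposited table. They are the apolipoproteins Apoe and Apoc1, the lipid uptake genes Lpl and Fabp5, the oxysterol enzyme Ch25h, the storage genes Soat1 and Plin2, the efflux transporters Abca1 and Abcg1, and the nuclear receptor Nr1h3. In 5xFAD EGFP microglia, 6 of them (Apoe, Lpl, Fabp5, Ch25h, Plin2 and Soat1) were higher than in wild type, by 1.57-fold for Soat1 to 42.9-fold for Lpl, while Apoc1, both efflux transporters and Nr1h3 did not pass the test in that comparison. No change of these 6 genes against 5xFAD EGFP was called with the circular RNA or in the PKR knockout.

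Microglia take up lipid from myelin, dying cells and lipoproteins, hydrolyse it in lysosomes, and then store cholesterol and fatty acids in lipid droplets or pass them to apolipoprotein E. ABCA1 and ABCG1 move cholesterol out of the cell onto apolipoprotein particles, and their genes are classical targets of the liver X receptors, which are activated by oxysterols. ApoE is the main lipoprotein component of the brain, made mostly by astrocytes in the healthy brain and strongly induced in microglia that surround amyloid plaques.

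The samples fell into 4 groups. Wild type mice given the EGFP vector AAV PHP.eB-EGFP had 3 libraries, and 5xFAD mice given the same vector had 2. Another 4 libraries came from 5xFAD mice given an AAV PHP.eB vector for circPOLR2A, a circular RNA, and 4 from 5xFAD mice with a knockout of PKR (genotype 5xFAD; PKR KO). The 5xFAD mouse carries human transgenes with familial Alzheimer's disease mutations under a neuronal promoter, PHP.eB is an AAV capsid that crosses the mouse blood-brain barrier, EGFP is the control cargo, and PKR is a kinase activated by double-stranded RNA. The labels name no vector for the knockout mice and give library names for that group alone, so knockout, vector and library preparation cannot be told apart in comparisons with it. The circular RNA is written circPOLR2A(9,10), (9,11), (9,12) and (9,13) in the labels of replicates 1 to 4, the design text gives only (9,10), and the 4 libraries were grouped by their titles. Age, sex, the way the cells were isolated and whether replicates came from separate animals are not in the labels, so the p-values measure the spread between these libraries.

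Values are FPKM, fragments per kilobase of exon scaled to the fragments of the library, so levels can be compared between genes. Depth, recovered from the steps in the low values, was 45.2 to 70.0 M (mega) fragments, of which 49.2% to 60.7% fell in listed genes. Eif2ak2, which encodes PKR, was at 3.31 to 4.61 FPKM in the knockout, below the 6.49 and 6.59 FPKM of 5xFAD EGFP and the 7.37 to 8.11 FPKM with circular RNA, and overlapped wild type (4.14 to 5.23 FPKM). The 10 microglia markers were well above 0 in every library (summed level 2736 to 4677 FPKM). RNA of other cells was also present, and no marker of the 8 other cell types listed was at 0 in any library. Markers of vessel and border cells were lower in 5xFAD EGFP than in wild type, with 6 of 8 endothelial, 4 of 4 mural and 6 of 6 border macrophage markers called. Wild type replicate 3 stood apart, with the highest summed astrocyte (427 FPKM) and oligodendrocyte (1644 FPKM) markers of all libraries.

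Tests were run with limma on log2(FPKM + 1) for the 10817 genes whose mean reached 1 FPKM, and a gene was called at a Benjamini-Hochberg adjusted p under 0.05. Of the 10 genes, 8 passed this filter, while Apoc1 and Nr1h3 did not and were tested in a fit of 18291 genes without it. Log2 changes are on the log2(FPKM + 1) scale and understate changes of genes near or below 1 FPKM, whereas folds are ratios of mean FPKM. In these bulk libraries, fewer expressing cells and less RNA in each cell cannot be told apart.

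Positions are in GRCm38 (mm10). Apoe (chr7:19696109-19699188) and Apoc1 (chr7:19689481-19692660) are neighbours on the minus strand. Lpl is at chr8:68880491-68907448 and Fabp5 at chr3:10012548-10016607, both on the plus strand. On the minus strand are Ch25h at chr19:34473778-34475164, Soat1 at chr1:156424525-156474331, Plin2 at chr4:86648386-86670060, Abca1 at chr4:53030787-53159895 and Nr1h3 at chr2:91184061-91202834, and Abcg1 is on the plus strand at chr17:31057675-31117988. All 10 are protein-coding genes. The annotation has other genes overlapping Ch25h, Soat1, Abcg1 and Nr1h3, and Fabp5 has a near copy elsewhere, so reads of these genes may be shared with others.

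RefSeq promoter entries (GRCm38.p6) were found for 6 of the 10 genes, and for Apoc1, Lpl, Abcg1 and Fabp5 there was no entry. Of the 6, the sequences before the start of Abca1, Apoe and Ch25h are shown, because Abca1 is the textbook liver X receptor target that did not rise with Apoe in 5xFAD, and Ch25h makes an oxysterol. The window was the 250 bases before the start, and for Ch25h the part that lies outside the annotated gene (234 bases). The Abca1 window (chr4:53159896-53160145, minus strand) holds a direct repeat of AGGTCA spaced by 4 bases, the arrangement that liver X receptors bind together with RXR, with 3 mismatches in all. Its capitals mark both half-sites of that repeat, 67 to 52 bases before the start and read on the opposite strand as GGGTTACTACCGGTCA, and the E-box CACGTG.
Abca1: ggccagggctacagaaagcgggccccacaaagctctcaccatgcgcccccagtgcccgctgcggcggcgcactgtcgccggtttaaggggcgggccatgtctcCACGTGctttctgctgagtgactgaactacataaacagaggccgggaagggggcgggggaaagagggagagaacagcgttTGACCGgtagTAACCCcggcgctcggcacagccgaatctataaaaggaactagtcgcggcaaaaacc
The Apoe window (chr7:19699189-19699438, minus strand) has no match to this repeat, and the other 2 Apoe entries, which start inside the gene, have none either.
Apoe: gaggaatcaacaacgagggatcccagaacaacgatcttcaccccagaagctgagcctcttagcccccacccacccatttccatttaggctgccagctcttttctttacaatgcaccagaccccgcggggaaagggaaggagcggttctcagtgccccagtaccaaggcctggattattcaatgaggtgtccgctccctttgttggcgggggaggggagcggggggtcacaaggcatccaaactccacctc
In the Ch25h window (chr19:34475165-34475398, minus strand) the capitals mark TGACGTCA, the cyclic AMP response element.
Ch25h: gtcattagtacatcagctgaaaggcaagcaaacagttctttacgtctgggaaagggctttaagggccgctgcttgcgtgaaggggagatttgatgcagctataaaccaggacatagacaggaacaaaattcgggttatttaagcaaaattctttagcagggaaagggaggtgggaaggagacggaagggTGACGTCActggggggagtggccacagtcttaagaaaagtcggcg
Both strands were searched in all 32851 promoter windows of 250 bases, and a repeat with at most 3 mismatches was in 18.5% of them, CACGTG in 6.02% and TGACGTCA in 1.55%. A match is a description of the letters, and a window without one says nothing about elements farther away.

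**Figure D1:**
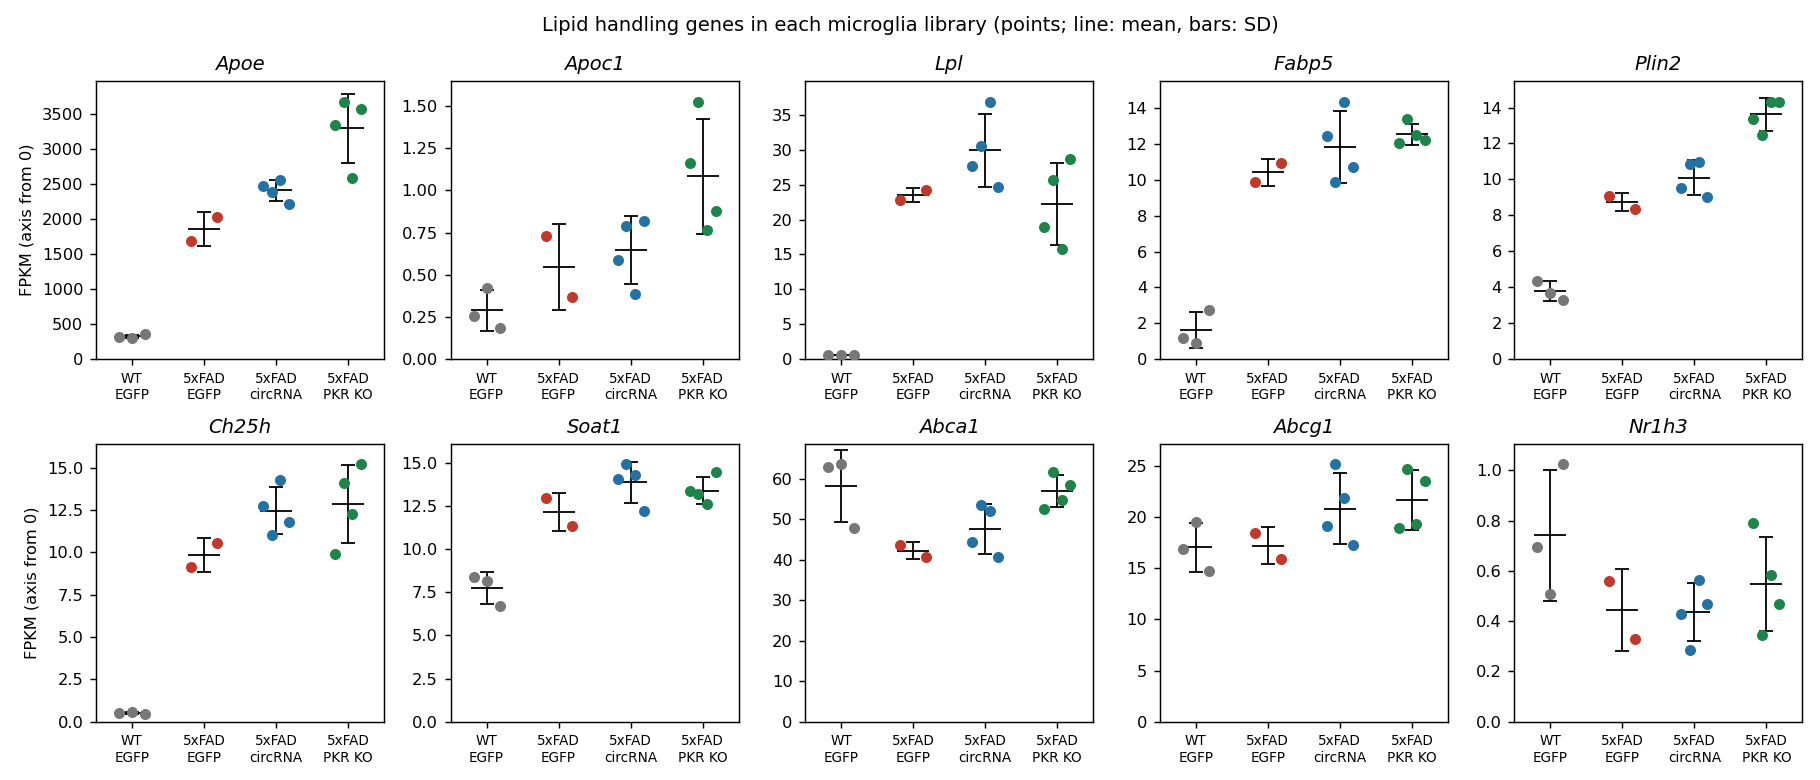
FPKM of each of the 10 genes (vertical axes, each from 0) in the 13 libraries, by group on the horizontal axis; points are libraries, the line is the group mean and the bars are the SD. Apoe, Lpl, Fabp5, Plin2, Ch25h and Soat1 lie higher in every 5xFAD library than in any of the 3 wild type libraries, and Abca1, Abcg1 and Nr1h3 do not.

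The first comparison set 5xFAD against wild type mice that had received the same EGFP vector, and so addresses what the disease model changes. Of the 8 genes tested, 6 were called higher and none lower, against 7.65% of all genes tested called higher and 6.35% called lower. Those 6 were also above wild type in every library, as were 16.5% of all genes. Lpl and Ch25h, near 0.5 FPKM in wild type, passed the filter only through their 5xFAD libraries, so in comparisons with wild type the count over the 8 genes is a description shaped by the filter. In the fit without it, 6 of all 10 genes were called. The number of all genes called also moved with single libraries, from 1514 to 666 without 5xFAD EGFP replicate 1 and to 566 without replicate 2.

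Apoe, which encodes the lipoprotein that carries cholesterol between brain cells, was at 315, 304 and 353 FPKM in wild type and at 1684 and 2027 FPKM in 5xFAD EGFP. Every 5xFAD library was thus far above every wild type library. The log2 change was 2.51 (SE 0.20, limma adjusted p = 6.71e-06), a 5.73-fold rise in mean FPKM. Among all genes of a library, Apoe ranked 29 to 37 by FPKM in wild type and 6 to 8 in 5xFAD EGFP, where it held 1.11% to 1.46% of the FPKM sum against 0.232% to 0.279%. Astrocytes also express Apoe. The summed level of the 10 astrocyte markers was 120 to 427 FPKM in wild type and 185 to 259 FPKM in 5xFAD EGFP. Within that sum, Gfap was called higher (19.3 to 62.5 FPKM in mean) and no marker was called lower. The other markers all had lower means in 5xFAD EGFP, and the median log2 change of the 10 was -0.40. Wild type replicate 3, the library with the highest astrocyte sum, had 353 FPKM of Apoe, below every 5xFAD library. Border macrophages express Apoe as well, and their summed markers were lower, 20.0 to 28.6 FPKM against 41.9 to 66.3 FPKM in wild type. The part of either cell type in the Apoe level was not tested. Apoc1, the small apolipoprotein encoded next to Apoe, was near the lower limit of the table, at 0.26, 0.42 and 0.19 FPKM in wild type and 0.73 and 0.37 FPKM in 5xFAD EGFP. These values rest on 7 to 29 fragments a library, the groups overlapped, and the log2 change of 0.26 (SE 0.17) was not called (limma adjusted p = 0.389).

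Lpl encodes lipoprotein lipase, which releases fatty acids from lipoprotein triglyceride. It was at 0.57, 0.52 and 0.56 FPKM in wild type and at 22.8 and 24.3 FPKM in 5xFAD EGFP. The gap between the groups was the widest of the 10 genes, a log2 change of 3.99 (limma adjusted p = 1.58e-07, SE 0.21) and a 42.9-fold higher mean FPKM. The wild type level rested on 259 to 294 fragments a library. Fabp5, a cytosolic carrier of fatty acids, was at 1.17, 0.88 and 2.75 FPKM in wild type and at 9.90 and 11.0 FPKM in 5xFAD EGFP. Its highest wild type value was that of replicate 3, and the groups did not overlap. The log2 change was 2.20 (SE 0.23, limma adjusted p = 6.08e-05), and without that library it was 2.50.

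Ch25h encodes cholesterol 25-hydroxylase, which makes 25-hydroxycholesterol, an oxysterol ligand of liver X receptors. Wild type libraries had 0.53, 0.56 and 0.46 FPKM (32 to 37 fragments) and 5xFAD EGFP had 9.14 and 10.6 FPKM. The groups were separate and the log2 change was 2.84 (SE 0.15, limma adjusted p = 1.52e-07), a 19.1-fold higher mean. Soat1 encodes the acyltransferase that esterifies cholesterol for storage, and was at 8.39, 8.16 and 6.70 FPKM in wild type and 12.9 and 11.4 FPKM in 5xFAD EGFP. This was the smallest called rise, 0.59 on the log2 scale (SE 0.11, limma adjusted p = 0.00400). The call was lost without 5xFAD EGFP replicate 1 (adjusted p = 0.0569) and when only these groups were fitted (adjusted p = 0.0717). Plin2, a coat protein of lipid droplets, was at 4.37, 3.66 and 3.28 FPKM in wild type and at 9.09 and 8.38 FPKM in 5xFAD EGFP. Its libraries did not overlap, and the log2 change was 1.03 (SE 0.11, limma adjusted p = 8.60e-05), or 2.32-fold.

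Abca1, which loads cholesterol onto lipid-poor apolipoproteins, stood at 62.9, 63.6 and 47.9 FPKM in wild type and at 43.7 and 40.7 FPKM in 5xFAD EGFP. Both 5xFAD libraries were below all wild type libraries, as in 21.1% of all genes, yet the log2 change of -0.44 (SE 0.15) was not called (limma adjusted p = 0.0720). It was called without wild type replicate 3 (-0.57, adjusted p = 0.0123), after quantile normalization (-0.61, adjusted p = 0.00250), with library weights (-0.54, adjusted p = 0.00887) and after rescaling to the same FPKM sum (-0.61, adjusted p = 0.00613), a rescaling that put the median of all genes at -0.17. Relative to that median the value was -0.44. The other alternatives did not call Abca1, with a limma adjusted p of up to 0.281 (the groups alone). Nor was it called without wild type replicate 1 (adjusted p = 0.179) or 2 (0.176). The log2 change was -0.49 without 5xFAD EGFP replicate 1 and -0.39 without replicate 2. Abcg1, which moves cholesterol onto mature lipoprotein particles, was at 16.9, 19.5 and 14.7 FPKM in wild type and 18.5 and 15.9 FPKM in 5xFAD EGFP, and the ranges overlapped. The log2 change was 0.02 (95% interval -0.35 to 0.38, limma adjusted p = 0.961), and its sign turned under 4 alternatives. Nr1h3, the gene for liver X receptor alpha, was below 1 FPKM in nearly all libraries, at 0.69, 0.51 and 1.02 FPKM in wild type and 0.56 and 0.33 FPKM in 5xFAD EGFP. The groups overlapped and the log2 change was -0.26 (95% interval -0.58 to 0.05, limma adjusted p = 0.286).

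**Figure D2:**
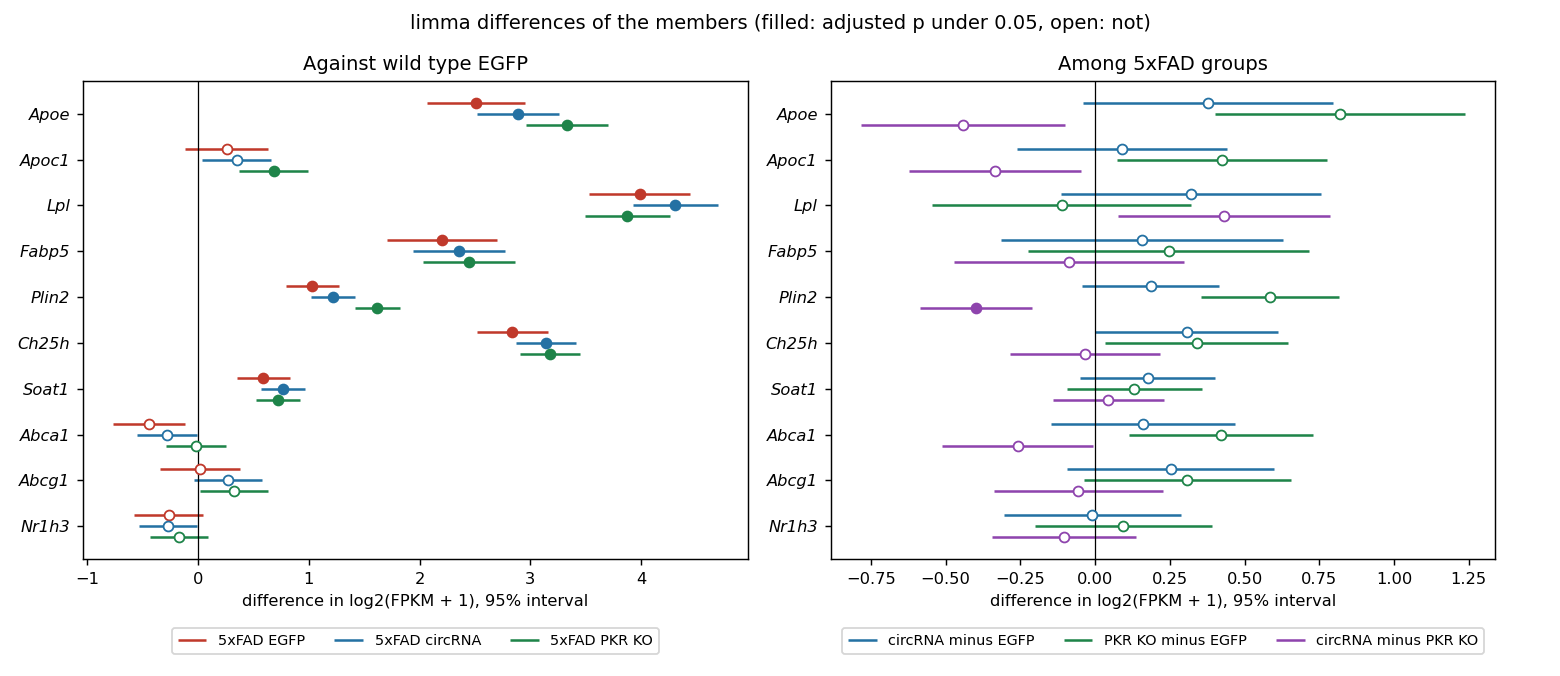
Differences in log2(FPKM + 1) between groups (horizontal axes) for the 10 genes (vertical axis), with limma's 95% intervals as lines, filled points for adjusted p under 0.05 and open points otherwise; the left panel compares the 3 5xFAD groups with wild type and the right panel compares 5xFAD groups with each other, on a narrower scale. In the left panel 6 genes are filled in all 3 groups, and in the right panel only Plin2 is filled, for circular RNA minus PKR knockout.

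The circular RNA was compared with the EGFP vector within 5xFAD. None of the 8 genes was called, and none of all genes tested (0%), while 523 genes (4.83%) had an unadjusted p under 0.05 in limma. Apoe, Lpl and Ch25h were higher in all 4 circular RNA libraries than in both EGFP libraries, a pattern seen in 16.6% of all genes. The median log2 change of the 8 genes was 0.22, and over all genes it was 0.08. The summed neuron markers were 8.90 to 27.9 FPKM with circular RNA and 28.7 to 33.3 FPKM in EGFP, without overlap. None of the 5 neuron markers tested was called, and the sums of the other listed cell types overlapped. The part of neurons in the changes of the lipid genes was not tested.

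Apoe was at 2463, 2386, 2554 and 2214 FPKM with circular RNA, above both EGFP libraries. The log2 change of 0.38 had a 95% interval of -0.04 to 0.80 (limma adjusted p = 0.739). Lpl was at 27.7, 30.5, 36.9 and 24.7 FPKM, all above EGFP, with a log2 change of 0.32 (95% interval -0.11 to 0.75). The lowest Lpl value, 24.7 FPKM, lay close to the higher EGFP value of 24.3 FPKM. Ch25h was at 12.8, 11.0, 14.3 and 11.8 FPKM, again above EGFP, and its log2 change of 0.31 was the single one of the 10 genes to pass without adjustment (limma adjusted p = 0.739). The other genes overlapped with EGFP. Fabp5 was at 12.5, 9.85, 14.4 and 10.7 FPKM, Soat1 at 14.1, 14.9, 14.3 and 12.2 FPKM, and Plin2 at 9.53, 10.8, 11.0 and 9.03 FPKM. Abca1 was at 44.3, 53.5, 52.0 and 40.7 FPKM and Abcg1 at 19.1, 25.2, 21.8 and 17.3 FPKM, and in both transporters replicates 2 and 3 were the higher libraries. Apoc1 was at 0.59, 0.79, 0.39 and 0.82 FPKM and Nr1h3 at 0.43, 0.29, 0.56 and 0.47 FPKM. The intervals of all 8 genes reached at most 0.80 upward (Apoe) and -0.31 downward (Fabp5) on the log2 scale. With 2 EGFP libraries, changes up to these sizes were thus not excluded for those genes. Only the interval of Ch25h lay above 0, and it was not adjusted for the number of genes.

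The PKR knockout was compared with 5xFAD EGFP in the same way. No gene of the 8 was called, against 9 of all genes (0.0832%). Apoe, Plin2, Abca1, Abcg1 and Fabp5 were above EGFP in every library, as were 17.7% of all genes, and 4 genes (Apoe, Plin2, Abca1 and Ch25h) had an unadjusted p under 0.05, against 13.0% of all genes. The median log2 change of the 8 genes was 0.32, and over all genes it was 0.01. Markers of other cells differed as well. The summed oligodendrocyte markers were 235 to 395 FPKM in the knockout and 694 to 735 FPKM in EGFP, and the summed neuron markers 12.1 to 21.5 and 28.7 to 33.3 FPKM. Neither overlapped, although none of the 8 oligodendrocyte and 5 neuron markers tested was called, and their part in the changes of the lipid genes was not tested.

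Plin2 came closest to the threshold, with 13.4, 12.4, 14.3 and 14.3 FPKM in the knockout. All 4 libraries were far above the 9.09 and 8.38 FPKM of EGFP, and the log2 change was 0.59 (SE 0.11, limma adjusted p = 0.0644). It was called under 4 of 10 alternatives and without wild type replicate 3 (adjusted p = 0.0278), which enters the shared estimate of the spread. The other alternatives did not call Plin2, with a limma adjusted p of up to 0.124. Apoe was at 3344, 3671, 2585 and 3561 FPKM in the knockout, where it was the gene with the highest FPKM in 3 of 4 libraries. Replicate 3 was lowest, but still above both EGFP libraries. The log2 change was 0.82 (95% interval 0.40 to 1.24, limma adjusted p = 0.151), a 1.77-fold higher mean. It was called with the groups alone (adjusted p = 0.0452) and with library weights (adjusted p = 0.0178). The other alternatives did not call Apoe, with a limma adjusted p of up to 0.660. Apoc1 was at 1.16, 1.53, 0.76 and 0.88 FPKM, and its lowest value, in replicate 3, was just above the higher EGFP value (log2 change 0.42, adjusted p = 0.386).

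Abca1 was at 52.7, 61.7, 54.8 and 58.6 FPKM in the knockout, a range that was above EGFP and inside that of wild type. Its log2 change from EGFP was 0.42 (SE 0.14, limma adjusted p = 0.247), which was called with the groups alone (adjusted p = 0.0385) and with library weights (adjusted p = 0.0287). The other alternatives did not call it (limma adjusted p up to 0.350). Abcg1 was at 19.0, 24.7, 19.3 and 23.5 FPKM, of which the lowest was only slightly above the higher EGFP library. Ch25h was at 9.91, 14.1, 12.3 and 15.2 FPKM and overlapped EGFP, with a log2 change of 0.34. Lpl was at 19.0, 25.6, 15.8 and 28.6 FPKM, spread on both sides of EGFP, with a log2 change of -0.11 (95% interval -0.55 to 0.32, limma adjusted p = 0.825). Its sign turned without knockout replicate 3, the library with the lowest Lpl and the lowest Apoe of the group. Fabp5 was at 12.1, 13.4, 12.5 and 12.2 FPKM, Soat1 at 13.3, 13.2, 12.6 and 14.5 FPKM, and Nr1h3 at 0.79, 0.35, 0.58 and 0.47 FPKM.

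A direct comparison of circular RNA with PKR knockout called 1 of the 8 genes lower with circular RNA, Plin2, against 1.91% of all genes. The number of all genes called, 670, moved to between 147 (without knockout replicate 1) and 1339 (without wild type replicate 3) with a library left out. Plin2 and Apoe were below the knockout in every library, as in 4.44% of all genes. For Plin2, the log2 change was -0.40 (SE 0.09, limma adjusted p = 0.0227), from 13.6 ± 0.9 FPKM (SD, n = 4) in the knockout to 10.1 ± 0.97 FPKM (SD, n = 4). This call was lost without circular RNA replicate 1 (adjusted p = 0.0730), knockout replicate 1 (0.0632) or knockout replicate 3 (0.0663). Mean Apoe was 2404 ± 144 FPKM with circular RNA against 3290 ± 489 FPKM in the knockout (SD, n = 4 each), a log2 change of -0.44 that was not called (limma adjusted p = 0.106) except with library weights (adjusted p = 0.0233). Abca1 was lower in mean, 47.6 against 56.9 FPKM, with overlapping libraries and a log2 change of -0.26 (95% interval -0.51 to -0.0078, limma adjusted p = 0.184). It was called with median-ratio scaling (adjusted p = 0.0499) and with library weights (adjusted p = 0.0123). Lpl leaned the other way, 29.9 ± 5.2 against 22.3 ± 5.9 FPKM (SD, n = 4 each), with a log2 change of 0.43 (adjusted p = 0.121) and overlapping libraries. Soat1, Fabp5, Ch25h and Abcg1 differed by at most 0.09 on the log2 scale, with intervals from -0.47 to 0.30.

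Both treated groups also stood far from wild type, in comparisons that share the wild type libraries with the first one. With circular RNA, 6 of 8 genes were called higher (17.8% of all genes), and the same number were above wild type in every library (20.2% of all genes). In the PKR knockout 6 of 8 were called higher (17.5%) and 6 were above in every library (19.8%). They were Apoe, Lpl, Fabp5, Ch25h, Plin2 and Soat1 in each case. Mean Apoe was 7.42-fold the wild type level with circular RNA and 10.2-fold in the knockout, and mean Lpl was 54.6-fold and 40.6-fold. Apoc1 was also called higher in the knockout in the fit without the filter (log2 change 0.68, 3.75-fold, limma adjusted p = 0.00479). Abca1 was -0.28 with circular RNA (adjusted p = 0.126) and -0.02 in the knockout (adjusted p = 0.910). In the knockout its sign turned under 2 of 10 alternatives, and it was called lower after quantile normalization (-0.37, adjusted p = 0.00792). With circular RNA it was called lower under 4 of 10 alternatives and without wild type replicate 3 (adjusted p = 0.0220). Abcg1 was 0.27 with circular RNA (adjusted p = 0.185) and 0.33 in the knockout (adjusted p = 0.0855), where it was called higher without wild type replicate 2 (0.43, adjusted p = 0.0497). Nr1h3 with circular RNA was -0.27 (limma adjusted p = 0.138), and it was called lower under 2 of 8 alternatives, after rescaling to the same FPKM sum (-0.39, adjusted p = 0.0225) and with the replicate block (-0.27, adjusted p = 0.0409).

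The order of the 10 genes by mean FPKM put Apoe first and Abca1 next in all 4 groups. Lpl moved from the eighth place in wild type to the third in each 5xFAD group, ahead of Abcg1, although the libraries of these neighbours overlapped with circular RNA and in the PKR knockout. Soat1, Fabp5, Ch25h and Plin2 held the next 4 places in each 5xFAD group, with means between 8.73 and 13.9 FPKM and in an order that differed between the groups. Plin2 was the last of these 4 in 5xFAD EGFP and with circular RNA and the first in the knockout. With circular RNA and in the knockout, neighbours among these 4 overlapped in each group's own order. The ratio of Apoe to Abca1 was 5.72 ± 1.43 (SD, n = 3) in wild type and 44.1 ± 8.0 (SD, n = 2) in 5xFAD EGFP, 50.9 ± 5.1 (SD, n = 4) with circular RNA and 57.7 ± 7.2 (SD, n = 4) in the knockout. The ratio of Abca1 to Abcg1 was 3.25 to 3.73 in wild type and 2.13 to 2.83 in the 5xFAD groups, with no overlap. Plin2 over Soat1, a droplet coat over the enzyme of cholesterol esters, was 0.449 to 0.521 in wild type, 0.676 to 0.770 in both vector-treated 5xFAD groups and 0.945 to 1.14 in the knockout.

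**Figure D3:**
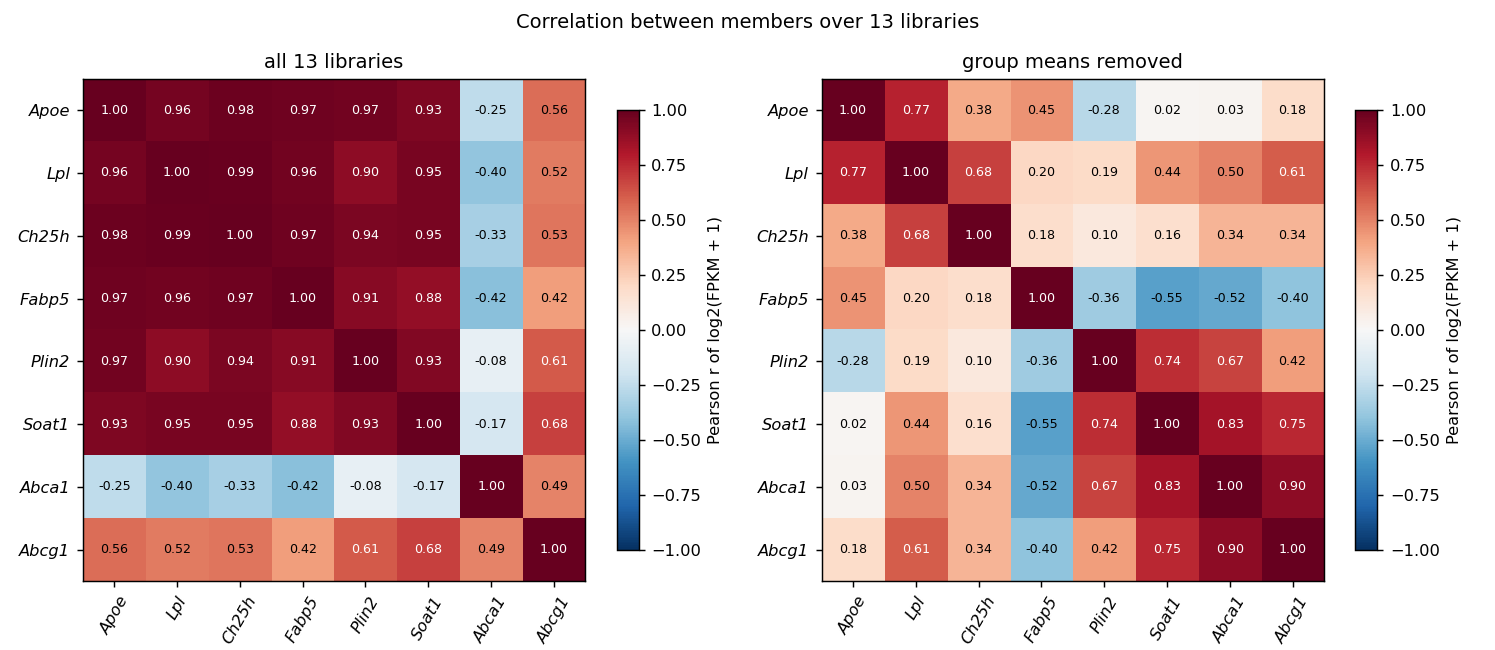
Pearson correlations of log2(FPKM + 1) between the 8 tested genes across the 13 libraries, as measured (left) and after each group's mean was taken out (right); color and number in each cell give r. In the left panel the 6 genes called higher in 5xFAD correlate with each other at 0.88 or more. In the right panel all pairs among Abca1, Abcg1, Soat1, Plin2, Lpl and Ch25h are positive, from 0.10 to 0.90. Fabp5 is negative there with Soat1 (-0.55), Abca1 (-0.52), Abcg1 (-0.40) and Plin2 (-0.36), and Apoe with Plin2 (-0.28).

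Across the 13 libraries the 6 genes called higher correlated closely with each other, which largely restates the group differences. After each group's mean was taken out, the genes fell into other pairings, given here as a description over 13 libraries that share depth and processing. Abca1 correlated with Abcg1 at r = 0.90 and with Soat1 at r = 0.83, and Soat1 with Plin2 at r = 0.74. Apoe correlated with Lpl at r = 0.77 and with Abca1 at r = 0.03. Lpl was also positive with Ch25h (r = 0.68), Abcg1 (r = 0.61) and Abca1 (r = 0.50). Without wild type replicate 3 (n = 12) Abca1 and Abcg1 were at r = 0.92, Abca1 and Soat1 at 0.71, and Apoe and Lpl at 0.81. The r of Soat1 with Fabp5 then went from -0.55 to -0.02, and that of Apoe with Abca1 from 0.03 to 0.33.

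Among all genes, those most like Apoe over the 13 libraries were Rftn1 (r = 0.993), Csf1 (r = 0.992), Lox (r = 0.991), Ctse (r = 0.989) and Rpl23a (r = 0.989). With group means taken out they were Csf1 (r = 0.953), Il12rb2 (r = 0.896), Myo1e (r = 0.882), Pygl (r = 0.879) and Akap1 (r = 0.860). The first set largely restates the group differences. Both sets hold the highest r picked from the 10817 genes tested, over 13 libraries. Whether these r exceed what such picking gives among unrelated genes was not tested. Csf1, which encodes a growth factor that signals through the receptor on which microglia depend, was the one gene in both sets. Ctse encodes an aspartic protease of endosomes and Lox a collagen cross-linking enzyme.

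**Figure D4:**
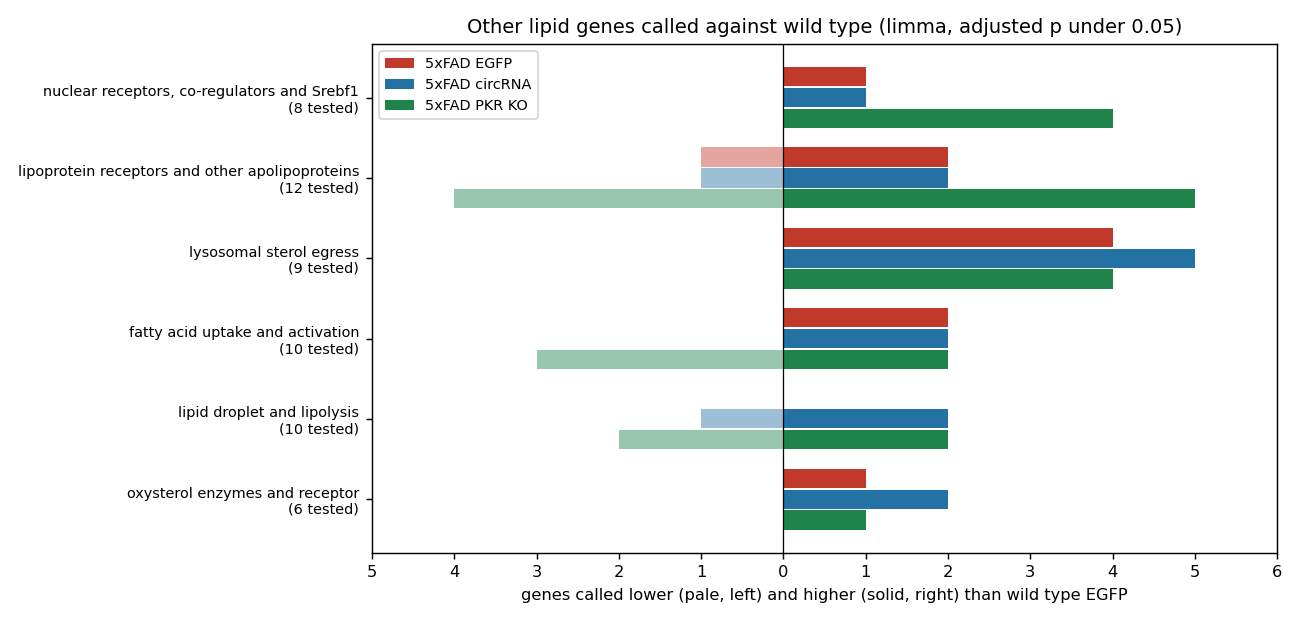
Number of genes called higher (solid bars, right of 0) and lower (pale bars, left of 0) than wild type EGFP in 6 lists of other lipid genes (vertical axis, with the number tested), by 5xFAD group. The lysosomal sterol list has 4, 5 and 4 genes called higher and none lower in the 3 groups, and the PKR knockout has the most genes called lower.

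Other genes of lipid handling were counted in 6 lists with 72 genes, 55 of which were tested. The lysosomal list mixes genes that free and export lysosomal cholesterol with others. Among the others are Lamp1 and Lamp2, general lysosomal membrane glycoproteins, and the sterol transporters Gramd1a and Gramd1b. Of its 9 genes, 4 were called higher in 5xFAD EGFP than in wild type and none lower (median log2 change 0.23), where 7.65% of all genes were called higher. Mean Lamp1 was 128 FPKM in wild type and 203 FPKM in 5xFAD EGFP, and Lamp2 19.2 and 27.8 FPKM. The cholesterol exporter Npc1 was at 15.3 and 15.9 FPKM. Npc2, which binds cholesterol in the lysosome, rose from 23.3 to 51.2 FPKM in mean (log2 change 1.13, limma adjusted p = 0.00181), and Lipa, the lysosomal acid lipase, from 6.89 to 11.9 FPKM (0.73, adjusted p = 0.00862). In the list of fatty acid uptake and activation 2 of 10 genes were called higher and none lower (median -0.12). Fabp3, a fatty acid carrier related to Fabp5, rose from 0.914 to 7.97 FPKM (log2 change 2.23, limma adjusted p = 2.20e-06), and Acsl5, which activates long-chain fatty acids, rose by 0.49 (adjusted p = 0.0461).

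Among lipoprotein receptors and other apolipoproteins, 2 of 12 were called higher and 1 lower in 5xFAD EGFP (median -0.07). Scarb1, a receptor for high-density lipoprotein, rose by 0.55 on the log2 scale (limma adjusted p = 0.0127). Pltp, a phospholipid transfer protein, fell from 55.9 to 17.0 FPKM (log2 change -1.62, adjusted p = 0.00738). The summed mural markers, 49.2 to 108 FPKM in wild type and 17.9 to 31.3 FPKM in 5xFAD EGFP, moved the same way as Pltp. So did the sums of endothelial markers (70.4 to 161 and 30.8 to 45.7 FPKM), border macrophage markers (41.9 to 66.3 and 20.0 to 28.6 FPKM) and choroid plexus markers (1029 to 2681 and 568 to 779 FPKM), none overlapping, and the part of these cells in the Pltp level was not tested. In a list of nuclear receptors of lipid metabolism (Nr1h2, or liver X receptor beta, RXRs and PPARs), their co-regulators and Srebf1, the 1 of 8 called was Ppard, the gene for PPAR delta (0.30, adjusted p = 0.0235), and Insig1, which restrains sterol synthesis, the 1 of 6 oxysterol genes called (0.72, adjusted p = 0.0173). None of 10 lipid droplet and lipolysis genes was called. Soat2, the other cholesterol acyltransferase, was at 1.12 to 1.15 FPKM in 5xFAD EGFP and 0.41 to 0.67 FPKM in wild type (log2 change 0.47, limma adjusted p = 0.0916), and it is named after its values were seen. Over the lists 10 genes were called higher and 1 lower of 55, against 7.65% and 6.35% of all genes. This count of 11 was not stable, since without either 5xFAD EGFP library and when only these groups were fitted it was 4, and after rescaling to the same FPKM sum it was 17.

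Against 5xFAD EGFP, no gene of the 6 lists was called with circular RNA (0% of all genes). In the PKR knockout 1 of 55 was, against 0.0832% of all genes. It was Sorl1, an endosomal sorting receptor, at 13.2 FPKM in mean against 9.12 FPKM in EGFP (log2 change 0.49, limma adjusted p = 0.0430). The count was 0 in 6 of 10 alternatives and when any 1 of 10 libraries was left out, and at most 7, with library weights.

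Compared with wild type, more genes of these lists were called in the treated groups, which have 4 libraries each. With circular RNA 16 were called, 14 higher and 2 lower, against 17.8% of all genes called higher and 8.05% called lower. They included 5 of 9 lysosomal genes, led by Npc2 (log2 change 1.39) and Lamp1 (0.96), a lysosomal membrane glycoprotein, as well as Fabp3 (2.38) and the oxysterol receptor Gpr183 (0.53), while Pltp (-1.02) and Mgll, a monoglyceride lipase (-0.44), were lower. Here 4 of 8 endothelial, 3 of 4 mural and 6 of 6 border macrophage markers were called lower and 1 astrocyte marker, Gfap, higher, and their part in the listed genes was not tested. In the PKR knockout 27 were called, 18 higher and 9 lower, with 17.5% of all genes called higher and 19.4% called lower. The higher ones included 4 of 8 in the nuclear receptor list, with Ppard (0.63) the most changed, and 4 of 9 lysosomal genes, among them Npc2 (1.45) and Lamp1 (0.85). Fabp3 (2.43), Acsl5 (0.69), Scarb1 (0.68), Insig1 (0.44), Soat2 (0.39) and Bscl2 (0.38), the seipin gene, were also higher. Pltp (-1.54), Apod (-0.89), Acsl3 (-1.12), Slc27a1 (-0.67), Mgll (-0.54) and Dgat1 (-0.24) were lower. In the same comparison 3 of 10 astrocyte markers were called lower and 1, Gfap, higher, and 6 of 8 endothelial, 4 of 4 mural, 6 of 6 border macrophage and 4 of 4 choroid plexus markers were called lower. The part of these cells in the listed genes was not tested. Between the treated groups, 4 genes of the lists were called lower with circular RNA, against 1.91% of all genes, among them Ppard (-0.34), Sorl1 (-0.35) and Gramd1a, a sterol transporter (-0.36). The 1 called higher was Npc1, the lysosomal cholesterol exporter that works with Npc2 (0.35), against 4.28% of all genes called higher. These counts depended on single libraries and settings, with 17 genes for the knockout against wild type when knockout replicate 2 was left out, and 3 to 18 genes between the treated groups.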

How the data were processed

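The authors deposited 1 table of FPKM values with 19737 genes and a column for each of the 13 libraries. Per the labels' protocols, ribosomal RNA was depleted and stranded total RNA libraries were sequenced. Bowtie2 2.3.5, HISAT2 2.1.0, featureCounts 1.5.1 and the build mm10 are named per the submitters' processing notes, and the annotation and the strand setting of the counting are not given in the sources used here. With exon lengths from GENCODE M21 for 19389 genes, 88.7% to 91.5% of low values were whole fragments within 0.02, which gave the depths and fragment numbers. These cover counting error only.

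Groups followed the titles. A limma 3.58.1 linear model in R 4.3.3 was fitted to log2(FPKM + 1) of all 13 libraries (9 residual degrees of freedom, eBayes with trend, two-sided), with p-values adjusted within each of 6 comparisons, and was tested on simulated data. Alternatives were pseudocount 0.1, no filter, a mean of at least 5 FPKM, 3 other scalings, the compared groups alone, library weights, the replicate number as a block, voom on recovered fragments, and each library left out. The genes and lists were chosen with earlier results of these data known. From each list, up to 2 called genes in each direction and comparison were named, those with the largest changes, together with the 5 genes most like Apoe by each correlation. Some genes that this rule picks are counted in their lists and not reported here by name.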

Additional observations from a re-analysis of the deposited data

How the results depend on the processing

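Apoe, Lpl, Ch25h, Fabp5 and Plin2 were called higher than wild type in all 3 5xFAD groups under each of 10 alternatives and with each library left out. Of the 8 genes, 5 to 7 were called in 5xFAD EGFP against wild type when a library was left out, 6 to 7 with circular RNA and 6 to 7 in the knockout. Circular RNA against EGFP gave 0 throughout. Knockout against EGFP gave 1 (Plin2) with a mean of at least 5 FPKM, 1 (Plin2) with median-ratio scaling, and Plin2, Apoe and Abca1 with the groups alone (3) and with library weights (3), and 0 to 1 with a library left out (1 without wild type replicate 3). Circular RNA against knockout gave 2 with median-ratio scaling (Plin2 and Abca1), 3 with library weights (also Apoe) and 0 to 1 with a library left out. The cause was not tested.

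Changes near 0 turned sign. Abcg1 in 5xFAD EGFP against wild type was -0.15 after rescaling to the same sum, -0.032 after quantile normalization, -0.070 with library weights and -0.031 with the replicate block, and -0.081 to 0.12 with a library left out. Abcg1 with circular RNA against wild type was -0.0048 after rescaling. Abca1 in the knockout against wild type was 0.010 with median-ratio scaling, 0.0082 with the replicate block and -0.15 to 0.050 with a library left out, and was called lower after quantile normalization (-0.37). Nr1h3 in the knockout against wild type was 0.055 after quantile normalization. Soat1 in circular RNA against knockout was -0.0087 after rescaling and -0.049 with median-ratio scaling. With a library left out, Apoc1 (-0.079 to 0.26) and Nr1h3 (-0.12 to 0.11) turned in circular RNA against EGFP, Lpl (-0.24 to 0.032) and Nr1h3 (-0.021 to 0.21) in knockout against EGFP, and Abcg1 (-0.15 to 0.026) and Ch25h (-0.14 to 0.046) in circular RNA against knockout.

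Same-numbered libraries deviated together in some pairs only (correlations of -0.42 to 0.69). The mean correlation of same-numbered libraries in a comparison was 0.022 to 0.33. Whether the numbers pair the samples cannot be told from these values or the labels. With the replicate block the number of the 8 genes called was the same in each of the 6 comparisons, and 22 of all genes were called in knockout against EGFP. Over all genes, rescaling to the same sum gave 708 higher and 3001 lower in 5xFAD EGFP against wild type, where the reported fit gave 827 and 687. It gave 995 and 4681 with circular RNA (reported 1925 and 871) and 1174 and 5421 in the knockout (1898 and 2099), with medians of -0.17, -0.20 and -0.24. Knockout against EGFP called 9 genes as reported, 577 with the groups alone, 822 with library weights, 46 with median-ratio scaling, 25 with a mean of at least 5 FPKM and 0 with no filter, pseudocount 0.1, quantile normalization, rescaling or voom. Circular RNA against knockout called 463 higher and 207 lower, and 260 and 681 with median-ratio scaling.

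With a library left out, all genes called in 5xFAD EGFP against wild type ranged from 566 (487 higher and 79 lower, without 5xFAD EGFP replicate 2) to 1998, with 391 and 275 without replicate 1. In circular RNA against knockout they ranged from 147 to 1339, and fell from 670 by over 1.5 times without either 5xFAD EGFP library, circular RNA replicates 1 or 3, or knockout replicates 1, 2 or 3. In knockout against EGFP they ranged from 0 to 58 (without wild type replicate 3). Genes lower than wild type were 504 with circular RNA and 1343 in the knockout without wild type replicate 1. The shares of all genes printed beside the counts move accordingly.

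The main limits are 2 libraries in the EGFP 5xFAD group, a wild type library that stands apart in markers of other cells, and FPKM that are relative to each library's total. Apoc1 and Nr1h3 rest on few fragments, and the 1 call in the reported fit was Apoc1 higher in the knockout than in wild type. Nr1h3 was called lower with circular RNA than in wild type after rescaling to the same sum and with the replicate block.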
